A study of Mus musculus with 6 samples.

Results

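Adventitial fibroblast genes are described here in atherosclerotic plaque, as 34 genes that mark the fibroblasts of the outer coat of the artery. They were taken by gene symbol from a list of names, and all 34 were among the 24062 symbols of the count table. Of these, 33 passed the filter on low counts, as did 15222 genes in all. Ebf2 did not pass and is given by its counts. The adventitia is the loose connective tissue around the muscular wall, and it runs into the fat that surrounds the vessel. Fibroblasts that carry Pi16, Dpt and Cd34 are known as a progenitor-like population of this layer and of connective tissue in other organs. They secrete collagen-processing proteins, matrix proteins and secreted modulators of Wnt signalling, and regulators such as Prrx1 and Twist1 are typical of mesenchymal cells.

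RNA was sequenced from aortic arch plaque of low-density lipoprotein receptor knockout mice of strain C57BL/6, with 3 vehicle libraries and 3 ABT263 libraries. Mice of both groups lacked the receptor, which lets plaque form when the feed is rich in fat. They had 12 weeks of a high-fat diet (TD88137) followed by 3 weeks of a diet abbreviated LFD. ABT263, also called navitoclax, blocks anti-apoptotic proteins of the BCL-2 family and is used to remove senescent cells. Its dose was 100 mg/kg daily by intraperitoneal injection, in week 1 on LFD. The labels give no age, no length of dosing and no statement of whether animals were pooled or whether adventitia and fat were trimmed from the plaque. The comparison asks how the genes of these fibroblasts stood after ABT263, in a series whose title concerns senescent cells and smooth muscle repair.

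Library totals ran from 62930547 to 110452098 counts. Contractile smooth muscle markers summed to between 2739 and 18134 CPM (counts per 1000000 counts, with library sizes adjusted by TMM) and macrophage markers to between 8026 and 24338 CPM, so both cell types of plaque were present in every library. Macrophage markers (12 genes) stood lower with ABT263, at 14479, 8026 and 15275 CPM against 15628 to 24338 CPM with vehicle. Of the 12, 7 were below every vehicle library in every ABT263 library (6.31% of all genes). T cell markers (40.8, 147.2 and 70.5 CPM against 173 to 204 CPM) and chondrocyte markers (867, 694 and 1228 CPM against 1455 to 2466 CPM) also summed lower in each ABT263 library. No gene of these 3 lists passed the edgeR test used below, which called 0% of all genes. DESeq2, a second test used below, called the macrophage marker Csf1r on the lower side (adjusted p = 0.035), where it called 0.552% of all genes. ABT263 replicate 2 stood apart by its white adipocyte, brown adipocyte and mesothelial markers. The 15 white adipocyte markers summed to 310 to 535 CPM with vehicle, 426 and 569.8 CPM in ABT263 replicates 1 and 3, and 8612 CPM in replicate 2. Adipoq, the adipocyte hormone adiponectin, stood at 0.0960 to 0.510 CPM with vehicle and at 0.186, 356 and 0.351 CPM in ABT263 replicates 1 to 3. Brown adipocyte markers (8 genes, 567 CPM against at most 11.1 CPM in the other 5 libraries) and mesothelial markers (8 genes in the table, 685 CPM against at most 22.1 CPM) were high in the same library. Adipocyte progenitor and regulator markers (8 genes) were not high there as a sum, at 3239 CPM against 2996 to 8731 CPM with vehicle. Most of that sum was Lpl (1796 CPM), Cd36 (697 CPM) and Fabp5 (467 CPM), which with Cebpa were not above the vehicle libraries. Klf15 (47.8 CPM against 9.57 to 19.5 CPM), Pparg (52.7 against 30.4 to 42.2 CPM) and Zfp423 (24.0 against 8.57 to 22.1 CPM) were above them in replicate 2. Dlk1 was too, at 0.326 CPM. Contractile smooth muscle markers were high in replicates 2 and 3 (18134 and 11173 CPM) and not in replicate 1 (2739 CPM, against 2973 to 4106 CPM with vehicle). Fold changes of the fibroblast genes are therefore given with and without ABT263 replicate 2. Replicate 3, which stays in both comparisons, was highest for skeletal muscle markers (11 genes). These summed to 51.1 CPM there, to 7.17 to 9.46 CPM with vehicle, and to 7.56 and 16.3 CPM in ABT263 replicates 1 and 2. In bulk RNA, more cells of a type and more RNA per cell cannot be told apart. The part of fat, mesothelium, smooth or skeletal muscle, macrophages, T cells or chondrocytes in the levels of the fibroblast genes was not tested.

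**Figure D1:**
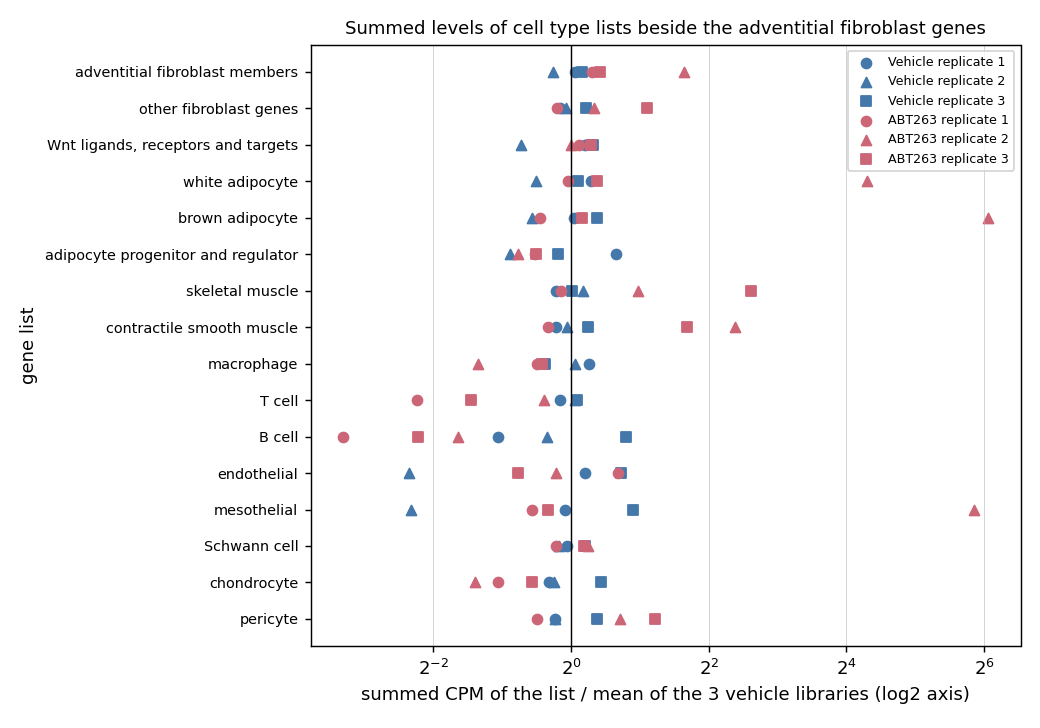
Summed CPM of each gene list in each library, divided by the mean of the 3 vehicle libraries, on a log2 axis; blue marks are vehicle and red marks ABT263 libraries, with 1 shape per replicate number. White adipocyte, brown adipocyte and mesothelial lists stand far to the right in ABT263 replicate 2 (8612, 567 and 685 CPM), while the 34 adventitial fibroblast genes reach 9648 CPM there against 2586 to 4132 CPM elsewhere.

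Adventitial fibroblast genes stood higher with ABT263 for the most part, by factors that differed between genes and libraries. In replicate 2, Svep1 stood at 150 times its vehicle mean and Scara3 at 1.12 times. Crispld2 stood at 4.91 times its vehicle mean in replicate 3. Pi16 stood at 3.20 times in replicate 1 and at 0.67 times in replicate 3. The 34 genes together summed to 3233, 2586 and 3465 CPM in vehicle replicates 1 to 3 and to 3836, 9648 and 4132 CPM in ABT263 replicates 1 to 3. All 3 ABT263 sums were above the 3 vehicle sums. Of the 33 genes tested, 30 had a positive log2 fold change (50.1% of all genes did), with a median of 1.06, where the median of all genes was 0.00080. Without ABT263 replicate 2, 28 of 33 were positive (48.4% of all genes), and their median was 0.60, where that of all genes was -0.011.

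No adventitial fibroblast gene passed the edgeR test, to which "passed" refers throughout. The edgeR quasi-likelihood test called 0 of the 33 genes at an adjusted p of 0.05 and 0% of all genes in either direction, and the adjusted p of the 33 ran from 0.592 to 0.974. At an unadjusted p under 0.05 it listed 16 of the 33 on the higher side (4.70% of all genes) and 0 on the lower side (3.68%). Without ABT263 replicate 2 these counts were 5 (1.50% of all genes) and 0 (2.73%). DESeq2 called 2 of the 33 on the higher side, Htra3 (adjusted p = 0.029) and Crispld2 (adjusted p = 0.012), and 0 on the lower, where 0.453% and 0.552% of all genes were called. It gave no adjusted p for Dpep1, Scara5, Opcml, Abca8a, Svep1 and Clec3b (5.24% of all genes). At an unadjusted p under 0.05 it listed 14 higher (6.07%) and 0 lower (5.22%). Without ABT263 replicate 2 DESeq2 called 0 of the 33 in either direction (0.123% and 0.641% of all genes), with an adjusted p of 0.205 for Htra3 and 0.108 for Crispld2. It then listed 5 higher (2.46%) and 1 lower, Meox1 (4.58%), at an unadjusted p under 0.05. limma-voom called 0 of the 33 and listed 6 higher (2.36%) and 0 lower (3.25%) at an unadjusted p under 0.05. Without ABT263 replicate 2 it again called 0, and listed 4 higher (1.25%) and 1 lower, Serpinf1 (2.23%).

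By their levels alone, 10 of the 33 genes were above every vehicle library in every ABT263 library (5.68% of all genes), and 0 were below (6.31%). The 10 are Scara5, Scara3, Opcml, Efemp1, Htra3, Dkk3, Prrx1, Gsn, Medag and Crispld2. The same 10 came out with scaling by total counts, where 8.56% of all genes were above and 4.03% below. Each ABT263 library by itself was above all vehicle libraries in 14 (replicate 1, 18.4% of all genes), 29 (replicate 2, 31.5%) and 22 (replicate 3, 24.7%) of the 33. Replicates 2 and 3 but not replicate 1 were above in 10 (11.3%). Considering ABT263 replicates 1 and 3 alone, the same 10 are above every vehicle library by definition, and no further gene of the 33 joined them (8.11% of all genes). Serpinf1 was below (9.17%).

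**Figure D2:**
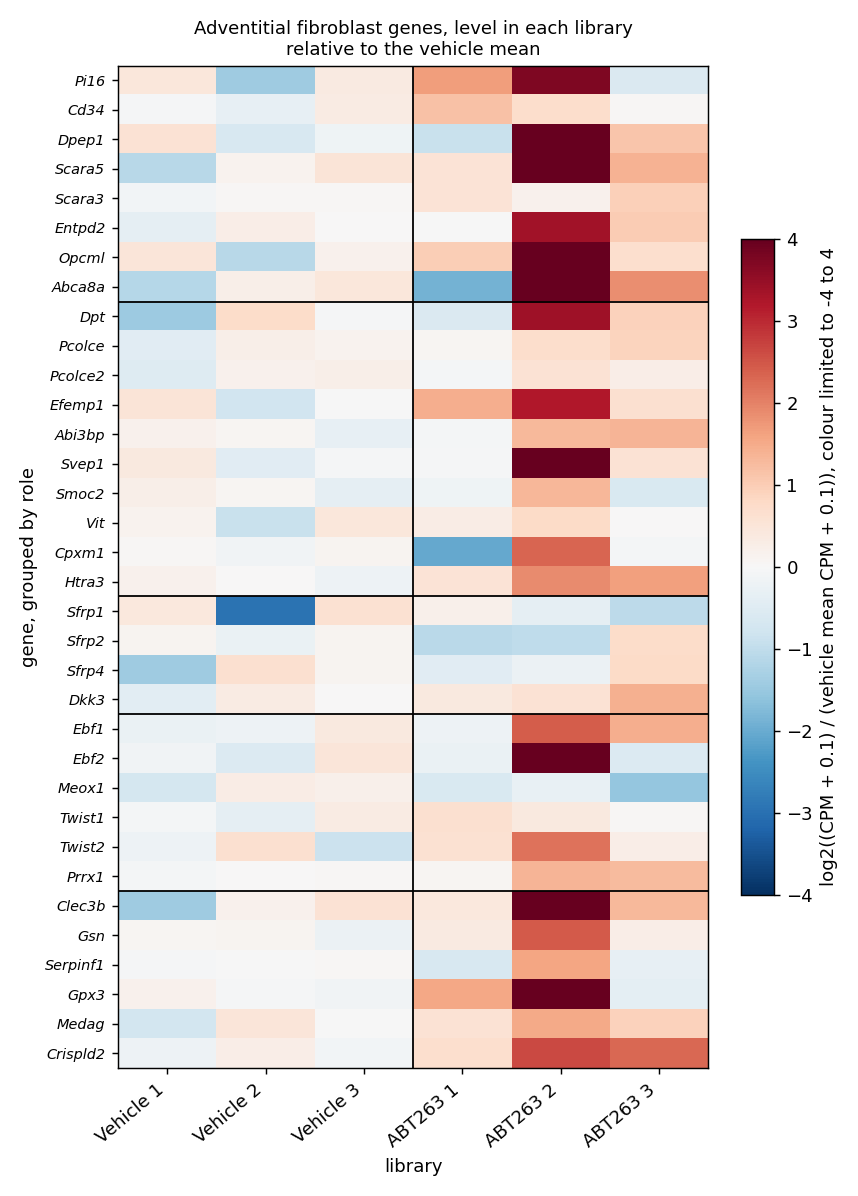
Level of each of the 34 genes (rows, grouped by role) in each library (columns), as log2 of CPM plus 0.1 over the vehicle mean plus 0.1, with colours limited to -4 to 4. The darkest red cells are in ABT263 replicate 2, where 16 of the 33 tested genes were more than 2 times above every other library, and Sfrp1 in vehicle replicate 2 is the darkest blue cell.

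Levels in ABT263 replicate 2 split the genes. In 16 of the 33 this library was more than 2 times above each of the other 5 (5.09% of all genes): Pi16, Dpep1, Scara5, Entpd2, Opcml, Abca8a, Dpt, Efemp1, Svep1, Smoc2, Cpxm1, Twist2, Clec3b, Gsn, Serpinf1 and Gpx3. It was the highest of the 6 libraries in 23 of the 33 (24.9% of all genes). By contrast, Scara3, Cd34, Pcolce, Abi3bp, Twist1, Dkk3, Meox1, Sfrp1, Sfrp2 and Sfrp4 were not highest in replicate 2.

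Promoter windows of 3 genes are shown to set these patterns beside sequence. Abca8a was 52.8 times above every other library in ABT263 replicate 2, Dpt was over 2 times above the other libraries there, and Htra3 was high in both replicates 2 and 3. The 3 were chosen after their values were seen, among the genes whose window holds the E-box CATCTG or its reverse complement CAGATG, a hexamer of the kind that Twist-type basic helix-loop-helix factors recognise. Windows run 5′ to 3′ on the strand of the gene, from 250 bases before the RefSeq start to 50 bases after it (GRCm38.p6), and capitals mark the E-box.
Abca8a, chr11:110095888-110096187, minus strand: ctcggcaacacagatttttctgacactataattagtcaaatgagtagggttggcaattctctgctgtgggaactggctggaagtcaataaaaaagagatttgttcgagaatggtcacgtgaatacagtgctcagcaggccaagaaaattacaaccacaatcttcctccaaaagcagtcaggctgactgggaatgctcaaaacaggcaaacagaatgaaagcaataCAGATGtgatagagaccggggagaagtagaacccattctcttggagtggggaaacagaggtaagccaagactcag
Dpt, chr1:164796413-164796712, plus strand: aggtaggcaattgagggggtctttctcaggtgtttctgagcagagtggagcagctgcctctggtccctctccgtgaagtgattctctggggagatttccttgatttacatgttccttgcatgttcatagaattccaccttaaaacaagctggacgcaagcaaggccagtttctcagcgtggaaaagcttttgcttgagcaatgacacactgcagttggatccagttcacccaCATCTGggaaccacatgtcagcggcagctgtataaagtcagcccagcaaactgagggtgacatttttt
Htra3, chr5:35679731-35680030, minus strand: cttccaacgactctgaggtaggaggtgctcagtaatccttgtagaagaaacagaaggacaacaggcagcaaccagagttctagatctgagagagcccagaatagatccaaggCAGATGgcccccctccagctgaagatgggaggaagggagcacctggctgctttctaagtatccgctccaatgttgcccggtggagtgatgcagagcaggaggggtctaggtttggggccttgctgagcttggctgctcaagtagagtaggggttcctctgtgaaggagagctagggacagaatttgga
The first base of the E-box lies 25 bases before the start in Abca8a, 18 in Dpt and 138 in Htra3.

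RefSeq held 27 windows for 23 of the 34 genes. The 11 others are Scara5, Scara3, Abi3bp, Smoc2, Vit, Sfrp1, Sfrp4, Dkk3, Ebf2, Meox1 and Clec3b. An E-box of this kind was in 8 of the 27 windows (29.6%), against 17.2% of all 32851 windows and 12.3% of the windows of the genes tested. Besides the 3 shown, these were windows of Gsn, Cpxm1, Pcolce, Medag and Serpinf1. The palindromic core recognised by EBF factors, TCCC and GGGA with any 2 bases between them, was in 0 of the 27 windows and in 0.904% of all windows. A match is a description of the letters and not of a bound site.

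Among surface proteins and progenitor markers (8 genes), all 8 had a positive log2 fold change with all libraries (median 2.98) and without ABT263 replicate 2 (median 0.87), and 0 passed the test. Pi16 (chromosome 17, 29317680 to 29330593), a secreted peptidase inhibitor that marks progenitor-like fibroblasts, stood at 49.7, 13.7 and 46.5 CPM with vehicle and at 117, 488 and 24.6 CPM with ABT263. Replicates 1 and 2 were above every vehicle library and replicate 3 was within their range. Its log2 fold change was 2.52 (SE 1.06), or 0.96 (SE 0.77) without ABT263 replicate 2. Cd34, a sialomucin of fibroblast progenitors that vascular endothelium also carries, stood at 185, 153 and 241 CPM with vehicle and at 437, 316 and 200.8 CPM with ABT263. Replicates 1 and 2 were again above the vehicle range, and the log2 fold change was 0.72 (SE 0.34), or 0.73 (SE 0.39) without replicate 2.

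Dpep1, Scara5, Abca8a and Opcml were scarce in 5 libraries and abundant in ABT263 replicate 2. Dpep1 (chromosome 8, 123186242 to 123201812), a membrane dipeptidase, stood at 1.10, 0.418 and 0.614 CPM with vehicle and at 0.341, 125 and 1.64 CPM with ABT263. Abca8a (chromosome 11, 110025634 to 110095978), a transporter of the ABC family with close relatives beside it in the genome, stood at 0.336, 1.01 and 1.21 CPM with vehicle and at 0.155, 176 and 3.34 CPM with ABT263. Scara5, a ferritin receptor, stood at 1.36, 3.38 and 4.46 CPM with vehicle and at 4.56, 173 and 8.26 CPM with ABT263. For Dpep1 and Abca8a, ABT263 replicate 1 was below every vehicle library and replicate 3 above. For Scara5 the groups did not overlap, although replicate 1 exceeded the highest vehicle library by little. The log2 fold changes of Dpep1, Abca8a and Scara5 were 5.90 (SE 2.16), 6.12 (SE 2.29) and 4.33 (SE 1.48), and without replicate 2 they were 0.49 (SE 0.81), 1.03 (SE 1.18) and 1.06 (SE 0.57). Opcml, an adhesion molecule anchored by GPI, stood at 0.672, 0.158 and 0.527 CPM with vehicle and at 0.982, 12.9 and 0.771 CPM with ABT263. Its groups did not overlap either (log2 fold change 3.44, SE 1.27, or 0.97, SE 0.71, without replicate 2).

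Scara3 did not follow that pattern, and Entpd2 did at a smaller factor. Scara3, a scavenger receptor-like protein (chromosome 14, 65919394 to 65953935), varied little with vehicle, at 154, 173 and 172 CPM, and stood at 242, 185 and 323 CPM with ABT263. All ABT263 libraries were above all vehicle libraries and replicate 2 was the lowest of the 3, so the log2 fold change was 0.59 (SE 0.25) with it and 0.77 (SE 0.23) without it. Entpd2, an enzyme that splits extracellular ATP, stood at 5.25, 8.23 and 6.86 CPM with vehicle and at 6.75, 70.0 and 13.7 CPM with ABT263. Its log2 fold change was 2.15 (SE 0.84), or 0.60 (SE 0.39) without replicate 2, and its exons overlap those of Npdc1, so its counts are uncertain.

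**Figure D3:**
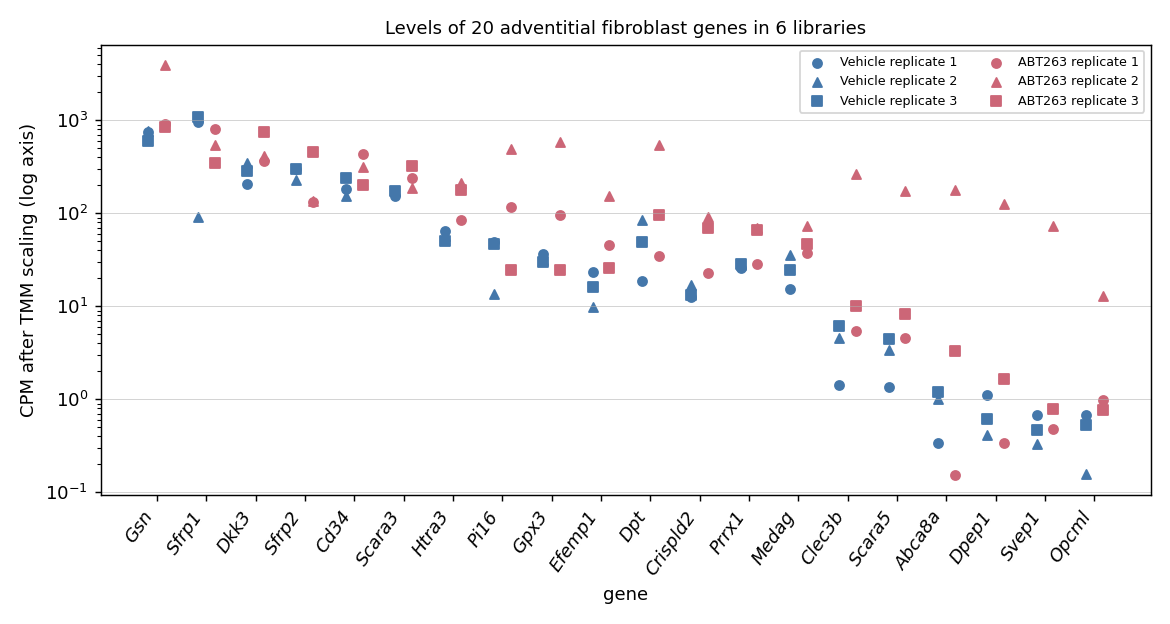
CPM after TMM scaling, on a log axis, of 20 of the genes in the 6 libraries; blue is vehicle and red ABT263, with 1 shape per replicate number. From Clec3b to Opcml on the right, the red triangle (ABT263 replicate 2) stands far above the other 5 marks, while for Scara3, Dkk3 and Htra3 it lies among or near the other red marks.

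Genes of matrix and collagen processing (10 genes) all had a positive log2 fold change, with a median of 1.02, and 0 passed. Without ABT263 replicate 2, 8 of 10 were positive, with a median of 0.36. Htra3, a secreted serine protease (chromosome 5, 35652023 to 35679782), stood at 64.1, 57.2 and 49.8 CPM with vehicle and at 83.7, 212 and 178 CPM with ABT263. Every ABT263 library was above every vehicle library, with replicate 1 nearest to them, and the log2 fold change was 1.47 (SE 0.35), or 1.20 (SE 0.35) without replicate 2. Efemp1, the matrix glycoprotein fibulin-3 (chromosome 11, 28853204 to 28926743), stood at 23.4, 9.71 and 16.2 CPM with vehicle and at 45.6, 153 and 25.7 CPM with ABT263. The groups did not overlap, replicate 3 lying just above vehicle replicate 1, and the log2 fold change was 2.19 (SE 0.70), or 1.13 (SE 0.42) without replicate 2.

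Dermatopontin and Svep1 followed ABT263 replicate 2. Dpt, dermatopontin, a small protein that binds collagen and decorin (chromosome 1, 164796644 to 164824266), stood at 18.7, 85.3 and 49.7 CPM with vehicle and at 34.5, 537 and 96.4 CPM with ABT263. Its vehicle libraries spread 4.55-fold, and ABT263 replicate 1 lay inside that range, so that the log2 fold change of 2.12 (SE 1.05) was 0.35 (SE 0.70) without replicate 2. Svep1, a large adhesion protein (chromosome 4, 58042442 to 58206859), stood at 0.672, 0.334 and 0.468 CPM with vehicle and at 0.475, 73.5 and 0.785 CPM with ABT263. Replicate 2 was 93.6 times the highest of the other 5 libraries, and the log2 fold change of 5.67 (SE 2.03) was 0.37 (SE 0.58) without it. Abi3bp, a matrix protein, stood at 30.7, 28.9 and 21.8 CPM with vehicle and at 26.0, 66.3 and 70.0 CPM with ABT263, with replicates 2 and 3 high and replicate 1 inside the vehicle range (log2 fold change 1.00, SE 0.39, or 0.83, SE 0.43, without replicate 2).

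Pcolce and Pcolce2, which enhance cleavage of the procollagen C-propeptide, showed small differences. Pcolce stood at 78.1, 127 and 119 CPM with vehicle and at 113, 175 and 200.4 CPM with ABT263 (log2 fold change 0.59, SE 0.29, or 0.54, SE 0.35, without replicate 2), and its exons overlap those of Fbxo24 and Gm36266. Pcolce2 overlapped between the groups (log2 fold change 0.29, SE 0.27, or 0.12, SE 0.30, without replicate 2). Smoc2, a calcium-binding matricellular protein, and Cpxm1, a carboxypeptidase-like secreted protein, turned sign with 1 library. Smoc2 stood at 99.3, 89.1 and 65.6 CPM with vehicle and at 75.7, 215 and 55.5 CPM with ABT263, and its log2 fold change of 0.44 (SE 0.51) was -0.36 (SE 0.26) without replicate 2. Cpxm1 stood at 14.2, 12.5 and 14.9 CPM with vehicle and at 3.31, 69.2 and 13.1 CPM with ABT263, and its log2 fold change of 1.04 (SE 0.95) was -0.75 (SE 0.57) without replicate 2. Vit, the matrix protein vitrin, had 0.41 (SE 0.37), or 0.18 (SE 0.40) without that library.

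Of the modulators of Wnt signalling (4 genes), 2 had a positive log2 fold change (median -0.030), or 3 without ABT263 replicate 2 (median 0.19), and 0 passed. Secreted frizzled-related proteins bind Wnt ligands outside the cell, and Dkk3 is a secreted protein of the Dickkopf family. Dkk3 (chromosome 7, 112116017 to 112159057) stood at 208, 347 and 282 CPM with vehicle and at 368, 412 and 744 CPM with ABT263. All ABT263 libraries were above all vehicle libraries, replicate 3 the most so, and the log2 fold change was 0.86 (SE 0.36), or 1.00 (SE 0.40) without replicate 2. Sfrp2 stood at 301, 229.1 and 299 CPM with vehicle and at 132, 136 and 458 CPM with ABT263, so that replicates 1 and 2 were below and replicate 3 above every vehicle library (log2 fold change -0.19, SE 0.52, or 0.10, SE 0.52, without replicate 2). Sfrp4 stood at 13.3, 55.5 and 38.3 CPM with vehicle and at 25.8, 30.5 and 60.9 CPM with ABT263 (log2 fold change 0.13, SE 0.56, or 0.28, SE 0.65, without replicate 2). None of the Sfrp genes was highest in ABT263 replicate 2.

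Sfrp1 (chromosome 8, 23411502 to 23449632) had the widest spread of the 33 genes within the vehicle group. It stood at 958, 90.7 and 1075 CPM with vehicle, an 11.9-fold spread, and at 812, 547 and 345 CPM with ABT263. Vehicle replicate 2 was the lowest of the 6 libraries, and the ABT263 libraries lay between it and the other two (log2 fold change -0.32, SE 0.82, or -0.29, SE 0.98, without ABT263 replicate 2). Endothelial markers, 10 genes, summed to 4266, 727 and 6177 CPM with vehicle and to 5981, 3189 and 2178 CPM with ABT263, and so were lowest in the same library. Pecam1, the first of these markers, stood at 1131, 179.6 and 1584 CPM with vehicle and at 1839, 797 and 490 CPM with ABT263. The part of endothelial RNA in the level of Sfrp1 was not tested.

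Of the transcription factors (6 genes, 5 tested), 4 had a positive log2 fold change, and 0 passed. Prrx1, a homeobox factor of mesenchymal cells (chromosome 1, 163245119 to 163313710), stood at 25.9, 27.6 and 28.3 CPM with vehicle and at 28.8, 69.8 and 65.8 CPM with ABT263. Vehicle libraries agreed closely, replicates 2 and 3 were more than 2 times above them, and replicate 1 exceeded them by little. The log2 fold change was 1.01 (SE 0.34), or 0.80 (SE 0.36) without replicate 2. Ebf1, a regulator shared by fibroblasts, adipocytes and B cells, stood at 8.56, 9.13 and 13.5 CPM with vehicle and at 8.94, 56.7 and 28.4 CPM with ABT263, the same 2 replicates being high (log2 fold change 1.59, SE 0.62, or 0.85, SE 0.51, without replicate 2). B cell markers (7 genes) summed to 22.6 to 81.8 CPM with vehicle and to 4.76, 15.1 and 10.1 CPM with ABT263. White adipocyte markers were highest in ABT263 replicate 2 (8612 CPM), as Ebf1 was. The part of B cells, adipocytes or fibroblasts in the level of Ebf1 was not tested.

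Ebf2, known for its role in brown fat precursors, had counts of 2, 0 and 7 with vehicle and 2, 1426 and 0 with ABT263. Both libraries with 0 counts, vehicle replicate 2 and ABT263 replicate 3, may still hold up to 3 counts' worth of the RNA, which is 0.0278 and 0.0421 CPM. Twist2 had at most 2.38 CPM outside ABT263 replicate 2 and 6.996 CPM in it (log2 fold change 1.32, SE 0.68, or 0.47, SE 0.56, without it). Twist1 stood at 14.2, 11.7 and 18.7 CPM with vehicle and at 23.1, 19.7 and 15.2 CPM with ABT263 (log2 fold change 0.38, SE 0.26, or 0.37, SE 0.31, without replicate 2). Meox1, a homeobox factor linked to fibroblast activation, stood at 9.09, 18.0 and 17.1 CPM with vehicle and at 9.63, 12.1 and 4.92 CPM with ABT263. It had a negative log2 fold change (-0.73, SE 0.41) that was -1.01 (SE 0.45) without ABT263 replicate 2, and its groups overlapped.

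Other secreted and cytosolic proteins (6 genes) all had a positive log2 fold change, with a median of 1.76, or 0.82 without ABT263 replicate 2, where 5 of 6 were positive. Crispld2, a secreted protein of the CAP superfamily to which Pi16 also belongs (chromosome 8, 119992438 to 120052793), stood at 12.5, 17.1 and 13.4 CPM with vehicle and at 22.7, 90.2 and 70.3 CPM with ABT263. Its log2 fold change was 2.09 (SE 0.49), and 1.70 (SE 0.47) without replicate 2, with all ABT263 libraries above all vehicle libraries. Medag, a protein linked to adipocyte differentiation, stood at 15.2, 35.6 and 24.7 CPM with vehicle and at 37.7, 72.4 and 47.2 CPM with ABT263, also without overlap (log2 fold change 1.06, SE 0.38, or 0.76, SE 0.38, without replicate 2). Its exons overlap those of Gm20488.

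Gelsolin (Gsn), which severs actin filaments and is also made by smooth muscle and macrophages, had the highest vehicle mean per kilobase of exon among the 34 genes. It stood at 750.2, 769 and 605 CPM with vehicle and at 917, 3915 and 856 CPM with ABT263 (chromosome 2, 35256380 to 35307892). Replicates 1 and 3 were above the vehicle libraries by little and replicate 2 by far, so the log2 fold change of 1.42 (SE 0.65) was 0.33 (SE 0.27) without it. Gpx3, the secreted glutathione peroxidase (chromosome 11, 54902453 to 54910377), stood at 36.5, 31.8 and 29.6 CPM with vehicle and at 95.6, 587 and 24.8 CPM with ABT263. Replicates 1 and 2 were above and replicate 3 below every vehicle library (log2 fold change 2.85, SE 1.06, or 0.89, SE 0.53, without replicate 2). Clec3b, tetranectin, stood at 1.42, 4.56 and 6.07 CPM with vehicle and at 5.37, 263 and 10.03 CPM with ABT263. Only replicates 2 and 3 were above the vehicle range, and the log2 fold change of 4.53 (SE 1.60) was 0.94 (SE 0.64) without replicate 2. Serpinf1, pigment epithelium-derived factor, had the narrowest spread of the 33 genes with vehicle, at 59.2, 60.0 and 62.4 CPM, and stood at 38.9, 182 and 48.2 CPM with ABT263. Its log2 fold change of 0.57 (SE 0.58) was -0.47 (SE 0.19) without replicate 2, where both remaining ABT263 libraries were below every vehicle library.

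**Figure D4:**
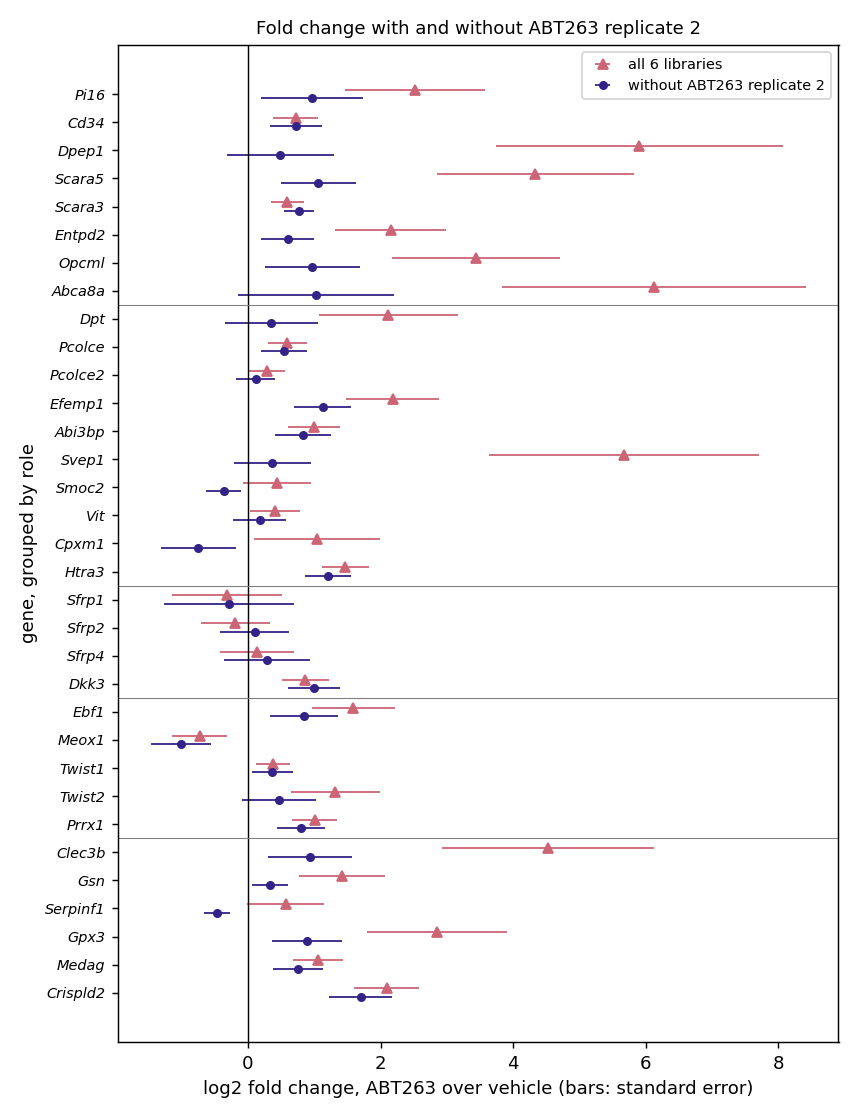
Log2 fold change of ABT263 over vehicle with its standard error for the 33 genes tested, grouped by role; triangles use all 6 libraries and circles leave out ABT263 replicate 2. Dpep1, Abca8a and Svep1 move from 5.90, 6.12 and 5.67 to 0.49, 1.03 and 0.37, while Htra3, Dkk3, Prrx1, Scara3 and Crispld2 are between 0.77 and 1.70 without that library.

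Levels per kilobase of exon spanned a wide range. In the vehicle mean, Gsn had 224 CPM per kilobase, Sfrp1 162, Sfrp2 128 and Dkk3 83.1, followed by Scara3 at 46.2, whereas Opcml and Svep1 had 0.0311 and 0.0305. The order of Sfrp1 against Gsn, Sfrp2, Dkk3 and Scara3 is within the spread of Sfrp1 across vehicle libraries. In ABT263 replicate 2 the order was another one, with Gsn at 1240 CPM per kilobase, Gpx3 at 324, Dpt at 312 and Clec3b at 265, while Sfrp2 stood at 63.1.

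Other fibroblast genes (30 genes, all tested) were compared as a second list, with 25 positive (50.1% of all genes were), a median of 0.70, or 0.57 without ABT263 replicate 2, and 0 that passed. At an unadjusted p under 0.05, 7 were on the higher side (4.70% of all genes) and 0 on the lower (3.68%). DESeq2 with all libraries called Igfbp6 (adjusted p = 0.0053) and Fbln1 (adjusted p = 0.024) on the higher side (0.453% of all genes). Pdgfra, a growth factor receptor used as a fibroblast marker, stood at 25.5, 24.4 and 29.7 CPM with vehicle and at 25.5, 89.0 and 64.4 CPM with ABT263. Igfbp6, which binds insulin-like growth factors, had a log2 fold change of 4.70 (SE 1.41), Fbln1 (fibulin-1) 3.42 (SE 1.08), Tnxb (tenascin-X) 2.202 (SE 0.69) and Ogn (osteoglycin) 2.12 (SE 0.73), and without replicate 2 they had 1.69, 1.44, 1.46 and 1.25. The summed level of all 30 genes was highest in ABT263 replicate 3 (25379 CPM, against 14906 CPM in replicate 2 and 10335 CPM in replicate 1), where the collagens Col1a1 and Col3a1 stood at 3758 and 5492 CPM. Their mean log2 level was highest in replicate 2 (7.55, against 7.15 in replicate 3, 5.96 in replicate 1 and 5.82 to 6.21 with vehicle), the library in which the sum of the 34 adventitial genes was highest too.

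Relative to the mean log2 level of these 30 genes in the same library, the adventitial genes differed among themselves. In ABT263 replicate 1, 18 of 33 were above (23.3% of all genes) and 5 below (10.9%) the range of the 3 vehicle libraries. In replicate 2, 16 were above (5.52%) and 10 below (83.8%), and in replicate 3, 6 were above (2.90%) and 12 below (81.5%). In the mean of replicates 1 and 3, Crispld2 (1.01 above the vehicle mean on the log2 scale), Efemp1 (0.67), Scara5 (0.65) and Htra3 (0.63) stood most above. Cpxm1 (-1.53), Meox1 (-1.50), Serpinf1 (-0.96) and Smoc2 (-0.84) stood most below. Efemp1 was above the vehicle range (-2.91 to -1.26) in replicate 1 (-0.45) and within it in replicate 3 (-2.46). Scara5 likewise was above its vehicle range (-5.27 to -4.02) in replicate 1 (-3.74) and within it in replicate 3 (-4.08). Smoc2 was within its vehicle range (-0.17 to 0.82) in replicate 1 (0.28) and below it in replicate 3 (-1.35). Prrx1 kept close to the other fibroblast genes in every library, between -1.43 and -1.11, and Pi16 did not, at 0.91 in ABT263 replicate 1 and -2.52 in replicate 3. These relative levels were not tested.

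**Figure D5:**
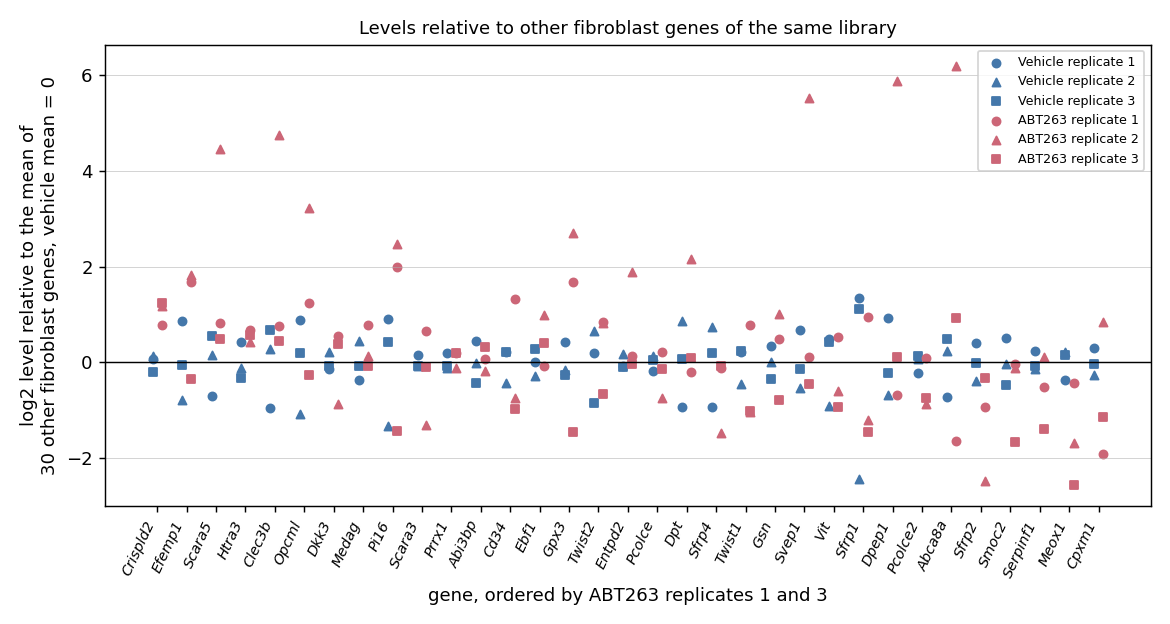
Log2 level of each tested gene relative to the mean of 30 other fibroblast genes in the same library, with the vehicle mean set to 0; genes are ordered by the mean of ABT263 replicates 1 and 3. Crispld2 at the left stands above 0 in all 3 ABT263 libraries, and Meox1 near the right stands below 0 in all 3.

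Wnt ligands, receptors and target genes (32 genes, 30 tested) were read beside the Sfrp genes and Dkk3. Of the 30, 25 had a positive log2 fold change (50.1% of all genes did), with a median of 0.61, or 0.34 without ABT263 replicate 2, and 0 passed. At an unadjusted p under 0.05, 8 were on the higher side (4.70% of all genes) and 0 on the lower (3.68%). DESeq2 with all libraries called Wnt5a (adjusted p = 0.019) on the higher side (0.453% of all genes). The receptor Fzd2 stood at 12.8, 14.8 and 16.2 CPM with vehicle and at 16.2, 42.1 and 42.6 CPM with ABT263 (log2 fold change 1.20, SE 0.38), and Fzd1 had 0.83 (SE 0.30). Wnt5a, a ligand of mesenchymal cells, stood at 0.928, 0.371 and 0.161 CPM with vehicle and at 0.744, 30.4 and 2.50 CPM with ABT263, so it was high in the library in which Dpep1 and Svep1 were. Nkd1, an inhibitor induced by Wnt signalling, stood at 6.42, 7.35 and 8.25 CPM with vehicle and at 6.55, 41.4 and 20.5 CPM with ABT263.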

How the data were processed

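Raw read counts per gene symbol for 6 libraries, not normalized, were deposited by the authors in a single table. Per the submitters' processing notes the build was mm10 and the tools included featureCounts 1.4.6 from Subread, Bowtie2 2.2.6 and TopHat2 2.0.14. For the gene annotation, strandedness and treatment of multi-mapping reads, the setting is not given in the sources used here. Libraries were made with the TruSeq RNA kit v2 per the labels' protocols. That kit does not mark strand, and 9 of the 34 genes have exons overlapping another gene in GENCODE M21 (GRCm38, the assembly of mm10), so reads of such pairs cannot be told apart. The 9 are Pi16, Cd34, Entpd2, Pcolce, Svep1, Sfrp2, Ebf2, Twist2 and Medag, and their counts are uncertain to that extent.

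Groups came from sample titles, and replicate numbers follow accession order and pair nothing. The labels do not say that samples are separate animals, so p-values then measure only spread between these samples, and that spread may be technical. Genes were filtered with filterByExpr (minimum count 10, minimum total 15), scaled by TMM and tested with edgeR 4.0.16 (quasi-likelihood F-test, group only, Benjamini-Hochberg over all genes tested, threshold 0.05) in R 4.3.3. Standard errors were derived from the F statistic, as |log2 fold change| / sqrt(F). DESeq2 1.42.0, limma-voom (limma 3.58.1), other scalings and leaving out libraries were alternatives. The code was tested on simulated data. Levels per kilobase divide CPM by the summed exon length in GENCODE M21. Relative levels add 0.1 CPM before the logarithm. Limits for a count of 0 cover counting error only. Genes given by library are those whose groups did not overlap, the 10 of largest absolute fold change and the 6 of highest mean, with further members added after their values were seen. From the Wnt and other fibroblast lists the 4 genes of smallest p are named, and from cell type lists the first marker. Pdgfra, Col1a1 and Col3a1 were added after their values were seen. The genes and lists were chosen with earlier results of these data known.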

Additional observations from a re-analysis of the deposited data

How the results depend on the processing

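The count of genes called by edgeR was 0 under RLE or total count scaling and without the filter. It was also 0 without each library in turn (0 to 0) and with both replicates numbered 2 left out. limma-voom, a separate test, called 0 genes with all libraries and without ABT263 replicate 2. DESeq2 called 153 genes with all libraries and 118 without ABT263 replicate 2. The median log2 fold change of the adventitial genes stayed positive, from 1.03 to 1.19 under the other scalings, filter and tools run with all libraries or without vehicle replicate 3. It ranged from 0.60 (without ABT263 replicate 2) to 1.57 (without ABT263 replicate 1) when 1 library was left out, and was 0.75 with both replicates numbered 2 left out. Of 396 values of single genes under alternatives, 382 kept their direction, and 26 of 33 genes kept it throughout. With both replicates numbered 2 left out, Smoc2 was -0.33, Vit -0.13, Cpxm1 -0.83 and Serpinf1 -0.48, and with limma-voom Cpxm1 was -0.056 and Sfrp1 0.089. Over the fits that left out 1 library, Smoc2 ranged from -0.36 to 0.77, Cpxm1 from -0.75 to 1.57, Serpinf1 from -0.47 to 0.92, Sfrp1 from -0.84 to 0.12, Sfrp2 from -1.05 to 0.10, Sfrp4 from -0.34 to 0.60 and Vit from 0.10 to 0.70. The causes were not tested. Counts by total scaling were chosen after seeing the data: 10 genes without overlap, as before, and 17 in place of 16 over 2 times above the other libraries in ABT263 replicate 2, the gene added being Ebf1. No paired analysis was possible because the labels carry no shared replicate numbers. With 3 libraries per group, precision is limited by the spread between libraries, and for Ebf2 by depth.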
